A study of Glycine max with 9 samples.

Results

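Cold-raised genes of soybean leaf were examined for how far and how evenly they stayed up between an early and a late harvest at 4 °C. Their members were selected on the measured values themselves. A gene was taken when its log2(normalized count + 1) was at least 0.58 higher, about 1.49-fold, in each of 6 comparisons with 0 h. These were 1 h minus 0 h and 24 h minus 0 h in replicates 1, 2 and 3. Its mean also had to be at least 100 normalized counts at 1 h or at 24 h. These conditions were met by 70 of the 49777 genes in the table, and 42 genes met the same conditions in the falling direction, with the level set at 0 h.

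The plants were soybean (Glycine max) of the cultivar Williams 82, which carries no transgene or mutation named in the labels, and the tissue was the unifoliate leaf pair, the first true leaves of the seedling. Seedlings 2 weeks old had grown at 20 °C under 18 h of light and 6 h of darkness, without fertilizer or Rhizobium. The groups were leaves before chilling (0 h) and leaves after 1 h and 24 h at 4 °C, a treatment that began 4 h after the lights came on. Each group had 3 libraries, each from at least 6 plants. No unchilled leaves of the later harvests were analysed here, so time of day at 1 h, leaf age at 24 h and cold cannot be told apart. The deposited identifiers are not paired with gene names, and 0 of 49777 matched the reference gene table. The leaf label therefore could not be checked against marker genes, and no function or sequence is given for a member.

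Plants of warm origin such as soybean are injured by chilling above freezing. In Arabidopsis, cold is followed within minutes by calcium influx and by fast transcription of regulators, among them the CBF/DREB1 factors, and later by transcripts of their targets, which encode protective proteins and enzymes of compatible solutes and membrane lipids. A transcript that is high at both an early and a late harvest can thus belong to either phase. The soybean genome descends from an old whole-genome duplication, so that many genes have a close copy on another chromosome. Reads that fit both copies may have been counted for either, and the sources used here do not say how they were treated.

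The 9 libraries held between 70979478 and 81875659 normalized counts. A single read was worth an estimated 1.17 to 4.16 normalized counts, the most in replicate 2 at 0 h, which was thus the least deeply sequenced. The libraries of replicate 3 stood apart from those of replicates 1 and 2 at every time, so results are given with and without them. Libraries that share a replicate number also shared their departures from the mean of their time. Across genes, r was between 0.689 and 0.950 in 9 such pairs, and 0.44 to 0.59 between replicates 1 and 2 of different times. The replicate number was therefore also fitted as a block. In leaf RNA of many cells, more cells of a kind and more RNA per cell cannot be told apart.

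The 70 members differed widely in size of response and in level. The log2 difference from 0 h, averaged over the 3 replicate numbers, ran from 0.70 to 7.66 at 1 h with a median of 1.29, a 2.44-fold difference. At 24 h it ran from 0.66 to 5.21 with a median of 1.27, a 2.41-fold difference. Over the 38985 genes tested, whose 9-library mean reached 10 normalized counts, the medians were -0.02 at 1 h and -0.02 at 24 h. Both differences of a gene use the same 0 h libraries. A mean of at least 1 on the log2 scale was reached by 53 members at 1 h and by 53 at 24 h, and a mean of at least 3 by 9 and 8. Mean levels ran from 2.33 to 6761 normalized counts at 0 h, from 101 to 12625 at 1 h and from 47.7 to 15868 at 24 h. These sizes were fixed from below by the choice of members and are a description.

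**Figure D1:**
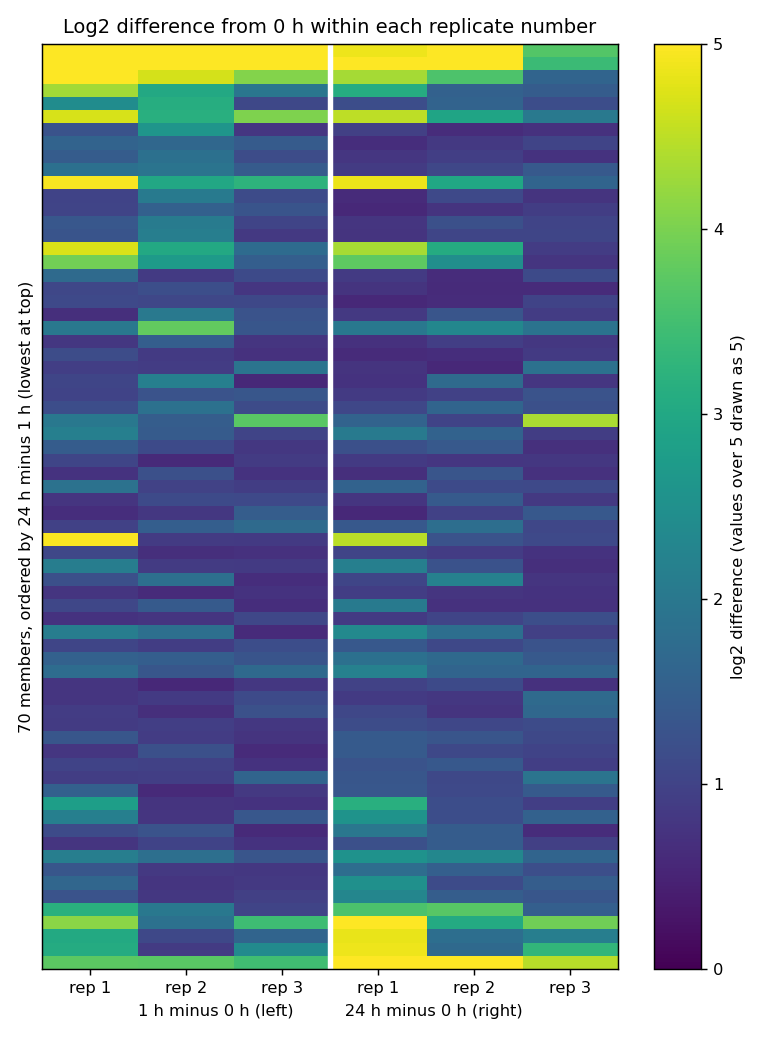
Log2 difference from 0 h of the 70 members (rows) at 1 h (left 3 columns) and 24 h (right 3 columns) in replicates 1, 2 and 3, with colour from 0 to 5 and larger values drawn as 5. Rows are ordered by the difference between 24 h and 1 h, lowest at the top, and 9 rows at 1 h and 8 rows at 24 h have a mean of at least 3.

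Glyma08g41640 had the largest response by the smallest of its 6 differences, which was 3.66. Its replicates 1, 2 and 3, the order used throughout, held 5, 0 and 2 normalized counts before chilling, 514, 797 and 361 after 1 h and 176, 134 and 37 after 24 h. Every cold library was above every 0 h library. The 0 h values were worth about 1.98, 0 and 1.29 reads, so the size of its difference rests on a near-empty baseline. The second by this measure, Glyma14g37440, began from a measurable level. Its replicates held 291, 455 and 185 normalized counts before chilling, 3909, 5979 and 2043 after 1 h and 13323, 15459 and 4076 after 24 h. The 3 groups did not overlap except that the highest 1 h library, replicate 2, exceeded the lowest 24 h library, replicate 3. Its log2 difference at 1 h, 3.74, 3.71 and 3.46, was the most even among the 9 members with a mean of at least 3.

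The most abundant members by their mean over the 6 cold libraries were Glyma11g12980 and Glyma06g13280. Glyma11g12980 held 707, 900 and 12735 normalized counts before chilling, 3103, 3196 and 31576 after 1 h and 4129, 4463 and 39012 after 24 h. Replicate 3 was above both other replicates at every time, and its 0 h library exceeded the cold libraries of replicates 1 and 2. The groups overlap across replicate numbers, while within each number the cold libraries were higher, by 1.31 to 2.13 on the log2 scale at 1 h and by 1.62 to 2.54 at 24 h. Glyma06g13280 held 8020, 7869 and 4393 normalized counts before chilling, 13307, 13436 and 9232 after 1 h and 14461, 15979 and 10078 after 24 h. All 6 of its cold libraries lay above all 3 of its 0 h libraries, with mean log2 differences of 0.86 ± 0.19 at 1 h and 1.02 ± 0.17 at 24 h (SD, n = 3). Both members were called at both times with the block (limma, adjusted p = 0.0062 and 0.0026 for Glyma11g12980, 0.0019 and 0.00072 for Glyma06g13280), in contrasts that chose them.

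**Figure D2:**
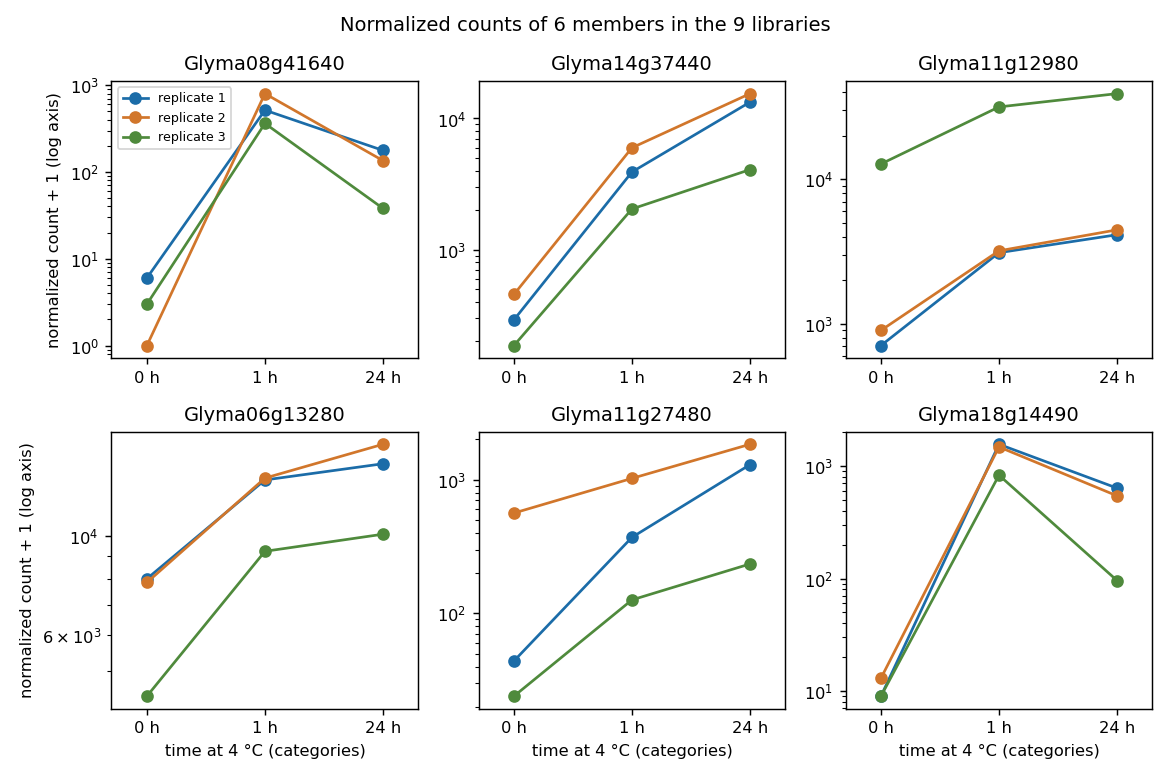
Normalized counts plus 1 (log axis) of 6 members in replicates 1, 2 and 3 at 0, 1 and 24 h at 4 °C, one line per replicate number. Glyma08g41640 and Glyma18g14490 peak at 1 h, the other 4 are highest at 24 h, and replicate 3 lies far above the others in Glyma11g12980.

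The threshold had close neighbours on both sides. The member nearest to it, Glyma18g45710, had a smallest difference of 0.582, from 339 at 0 h to 508 normalized counts at 1 h in replicate 3. Its replicates 1 and 2 held only 14 and 12 before chilling and 30 and 57 after 1 h. The gene just outside, Glyma08g01060, missed with 0.576, from 2987 to 4452 in replicate 2 at 1 h. A further 110 genes with the required level passed 5 of the 6 differences and 300 passed 4, so the members are the end of a gradual series.

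No member was called against 0 h in the fit of all 9 libraries that left the replicate number out of account. All 3 libraries at 1 h lay above all 3 at 0 h in 28 members, and all 3 at 24 h did so in 29, while 25 members had all 6 cold libraries above all 0 h libraries. Over the 28927 genes that met the level condition, 2.61%, 3.05% and 1.73% did so. The members were chosen on these contrasts, so nothing is read from the difference. With limma and no block, 0 of 70 members were called higher at 1 h and 0 at 24 h, at an adjusted p under 0.05, against a background of 0% of 38985 genes. At an unadjusted p under 0.05, 29 and 30 members were higher, and 0.872% and 0.9% of all genes tested. With the replicate number as a block, 57 members were called at 1 h and 52 at 24 h, where 2.4% and 3.01% of all genes tested were called higher. Of the members, 46 were called at both times, 11 at 1 h alone, 6 at 24 h alone and 7 at neither. The calls with the block rest on limma's trend and robust moderation. With plain moderation, 0 members were called at 1 h (0% of all genes tested) and 1 at 24 h, Glyma14g37440 (0.00257%). With the block, 42 and 37 of the 68 members then tested were called at 1 h and 24 h without the libraries of replicate 3, where 1.61% and 2.94% of the genes tested were called higher. Without those of replicate 1 the counts were 4 and 16 (0.0103% and 0.059% of the genes), and without those of replicate 2 they were 23 and 18 (0.411% and 0.143%). Single libraries also mattered to these counts. At 1 h, 31 members were called without replicate 1 of 0 h (0.328% of the genes) and 36 without replicate 2 of 0 h (1.06%). Without replicate 1 of 1 h the count was 19 (0.0898%), and without replicate 3 of 1 h it was 33 (0.406%). At 24 h, 30 were called without replicate 1 of 0 h (0.636%), 21 without replicate 1 of 24 h (0.318%) and 22 without replicate 2 of 24 h (0.315%). Without the block, 10 and 19 members were called without replicate 3 (0.0581% and 0.224%). Without its 24 h library alone, 2 were called at 1 h (0.00515%), Glyma17g12804 and Glyma18g14490.

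The 7 members called at neither time were, by their median, uneven between replicate numbers, which is built in, since the spread enters the test. Their median log2 difference was 2.23 at 1 h and 2.33 at 24 h, compared with 1.17 and 1.26 in the 46 members called at both. The median SD of the 3 differences was 1.19 and 1.58 in the former and 0.31 and 0.27 in the latter. The lowest SD among the 7 at 1 h was 0.39, below the median of 0.41 over all 70 members. Glyma11g27480 was one of the 7. Its replicates held 43, 561 and 23 normalized counts before chilling, 369, 1020 and 125 after 1 h and 1293, 1836 and 233 after 24 h. Replicate 2 was already high at 0 h, and the difference at 24 h was 4.88, 1.71 and 3.29 on the log2 scale.

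The difference between 24 h and 1 h was not set directly by the rule, and it was tested. It uses the same cold libraries and is not free of the rule, which bounds both cold times from below. The lowest mean of a member was 101 at 1 h and 47.7 at 24 h. Some members, such as Glyma16g29315, thus met the level of 100 only through 1 h, where they were higher. The directions that follow are therefore a description. The difference had no common direction among the members. Its median over the 70 members was 0.00 on the log2 scale, compared with 0.00 over the 38985 genes tested, and the 3 replicate numbers gave -0.06, 0.11 and 0.05. The libraries at 24 h were above those at 1 h in all 3 replicate numbers in 22 members and below them in all 3 in 17, while 31 were mixed or tied in some number. Over all genes that met the level condition, 15.7% were above in all 3 and 13.4% below. With libraries scaled to equal totals the members split into 18 above and 23 below, all genes of that level into 4.98% and 34.9%, and that scaling moved the median of all genes tested by -0.10. In replicates 1 and 2 alone, a reading added after the data were seen, 26 members were above in both and 26 below in both, with 30.9% and 26.1% of those genes. No member and no gene passed the test with limma, with or without the block (0% of 38985 genes in both fits, smallest adjusted p of a member = 0.556 with the block). At an unadjusted p under 0.05 with the block, 9 members were higher and 11 lower at 24 h, against 3.27% and 2.4% of all genes tested. The 11 include Glyma16g29315 (limma, unadjusted p = 0.045), which met the level only through 1 h. Without the block 0 were higher and 4 lower, against 0.0821% and 0.0923%.

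**Figure D3:**
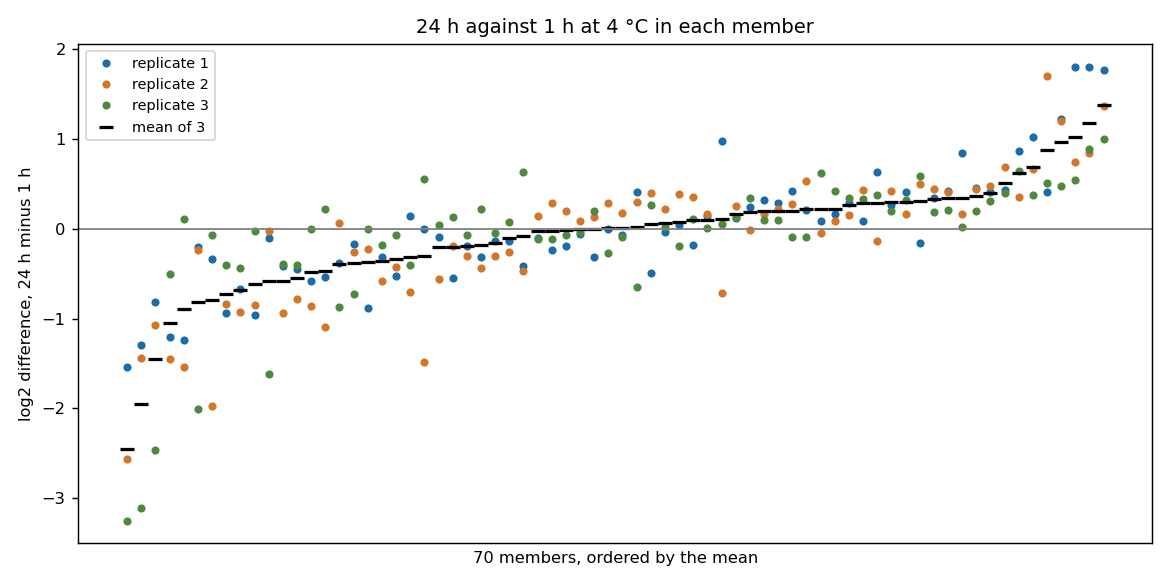
Log2 difference between 24 h and 1 h of the 70 members, ordered by their mean, with a point for each replicate number and a bar for the mean of 3. The means run from -2.45 to 1.38, and 31 of the 70 members have points on both sides of 0 or at 0.

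The members with the lowest 24 h values relative to 1 h, Glyma08g41640 and Glyma18g14490, also had the largest differences at 1 h. A difference from 1 h and a difference at 1 h share the 1 h libraries, so that such an order is partly built in. Glyma08g41640 differed by -1.54, -2.56 and -3.25 on the log2 scale, a mean of -2.45 ± 0.67 (limma SE with the block, adjusted p = 0.81). Glyma18g14490 held 8, 12 and 8 normalized counts before chilling, 1559, 1476 and 828 after 1 h and 635, 542 and 95 after 24 h. No 2 of its groups overlapped. Its mean difference was -1.95 ± 0.48 (limma SE with the block, adjusted p = 0.80) and was largest in replicate 3. The 17 members lower at 24 h in all 3 replicate numbers had a median difference of 1.57 at 1 h and 1.06 at 24 h, both relative to 0 h. The order of these medians is fixed by how the 17 were picked.

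Glyma14g37440 had the highest 24 h values relative to 1 h, with differences of 1.77, 1.37 and 1.00. The mean was 1.38 ± 0.18 (limma SE with the block, adjusted p = 0.56). With the block and without the libraries of replicate 3, or without its 24 h library alone, it was the 1 member called between the cold times (limma, adjusted p = 0.0024 and 0.0051), where 3 of 37898 genes, or 0.00792%, and 1 of 38840, or 0.00257%, were called higher. Glyma11g27480 was second, with 1.81, 0.85 and 0.89, a mean of 1.18 ± 0.60 (limma SE with the block, adjusted p = 0.90). The 22 members higher at 24 h in all 3 numbers had a median difference of 1.07 at 1 h and 1.58 at 24 h relative to 0 h. The order of these medians is likewise fixed by how the 22 were picked. Their median level at 0 h was 342 normalized counts, compared with 135 in the 17 that were lower. A mean difference of 0.58 or more between the cold times was found in 7 members upward and 10 downward. Over all genes that met the level condition the shares were 0.491% and 1.32%. The choice of members enters these counts too, so they are a description. The median SE of the difference with the block was 0.22 in the members and 0.15 over all genes tested, which include genes below the level condition. With only genes of a mean of at least 100 tested, it was 0.21 in 62 members and 0.11 over 28537 genes. The part of this in the wider spread was not tested.

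The level of the members differed between replicate numbers. The level condition includes the libraries of replicate 3, and 12 members meet it only with them, so these shares are a description. The mean of replicate 3 over the 3 times lay more than 2-fold from that of replicates 1 and 2 in 47 of 70 members, or 67.1%, 24 of them above and 23 below. Among all genes that met the level condition 42.1% did so. Replicates 1 and 2 differed by more than 2-fold in 2 members, while 4.58% of all those genes did. The labels do not say what libraries of 1 replicate number share. The log2 difference of the members from 0 h was smaller in replicate 3, with a median of 1.09 at 1 h compared with 1.34 and 1.28 in replicates 1 and 2, and of 1.11 at 24 h compared with 1.35 and 1.27. The smallest of the 6 differences came from replicate 3 in 32 members, or 45.7%, and from replicates 1 and 2 in 19 each, or 27.1%. Over all genes that met the level condition the shares were 33.9% for replicate 3, 31.6% for replicate 1 and 34.5% for replicate 2.

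**Figure D4:**
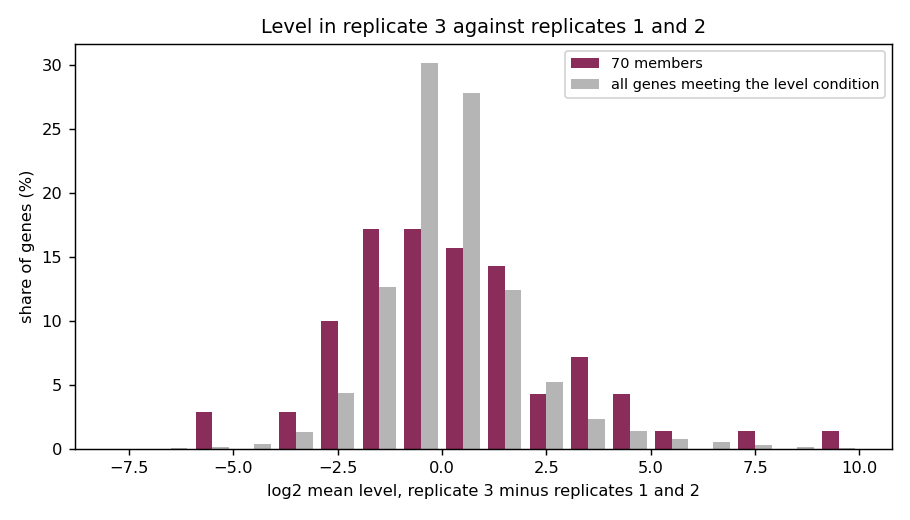
Share of genes (%) by the log2 difference of mean level between replicate 3 and replicates 1 and 2, in 1-unit classes, for the 70 members and for all genes that met the level condition. The members are spread more widely, with 67.1% of them more than 1 unit from 0 compared with 42.1% of all those genes. The level condition includes the libraries of replicate 3, and 12 members met it only with them.

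In 11 members, or 15.7%, replicate 3 was more than 8-fold above the other replicates. Among all genes that met the level condition 1574 did so, or 5.44%. Glyma06g12010 and Glyma08g06110, named after their values were seen, are the members listed at 0 in both replicates 1 and 2 at 0 h. Glyma06g12010 held 3 and 13 normalized counts in these replicates after 1 h and 3 and 4 after 24 h, worth about 1.11 and 4.82 reads and then 1.92 and 3.42 reads. Its replicate 3 held 1321 before chilling, 3338 after 1 h and 4923 after 24 h. Glyma08g06110 held 8 and 3 after 1 h and 11 and 12 after 24 h in replicates 1 and 2, and 626, 1268 and 1800 in replicate 3. In both genes the values that rest on many reads are those of replicate 3, through which alone they met the level condition. Others of the 11 members met it only so as well. The share of 15.7% is therefore a description, and nothing is read from its distance to 5.44%. In all, 12 members had fewer than 5 estimated reads in some 0 h library, and 35 had at least 20 in every 0 h library.

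In 4 members, or 5.71%, replicate 3 was more than 8-fold below the others, as in 564, or 1.95%, of all genes that met the level condition. These 4 members too were named after their values were seen. Glyma02g45170 held 579, 1458 and 25 normalized counts before chilling, 15105, 12911 and 425 after 1 h and 13144, 11001 and 105 after 24 h. Glyma14g03580 had a like course, with 275, 883 and 33, then 8483, 7052 and 318, then 7929, 6951 and 103. In both genes replicates 1 and 2 stayed near their 1 h level at 24 h, whereas replicate 3 differed by -2.01 and -1.62 on the log2 scale. Glyma05g08181 held 285, 536 and 220 before chilling, 7511, 4353 and 746 after 1 h and 5775, 4547 and 406 after 24 h, so that replicate 3 was close to replicate 1 at first and far below it in the cold. Glyma08g11290, the fourth, was low throughout, with 93, 73 and 5, then 159, 132 and 12, then 169, 128 and 19.

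Replicates 1 and 2 differed more at 0 h than in the cold in part of the members. At 0 h replicate 2 was more than 2-fold higher in 13 of 70 members, and in 3.74% of all genes that met the level condition. In those 13 members the median log2 difference between replicates 2 and 1 was 1.5 at 0 h, 0.19 at 1 h and 0.00 at 24 h, with a range of -0.54 to 0.53 at 24 h. The 13 were picked on their 0 h values, which draws later differences toward 0. The 0 h libraries also entered the choice of members, so this too is a description.

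Members were found on 20 of 20 chromosomes by the number written in the identifier, from 1 member on a chromosome to 8 on chromosome 6. Those 8 were 0.283% of the 2829 genes listed for chromosome 6. The highest share was on chromosome 16, with 6 of 1928 genes or 0.311%. Of the 70 members, 14 formed 6 runs with at most 10 other genes between one member and the next. In these runs 4 pairs were direct neighbours. How often other genes of the table form such runs was not counted. Chromosome 16 held 2 runs of 3 members, and chromosomes 4 and 7 a pair each. Chromosome 11 had 2 pairs, one of which held Glyma11g12980 and the other Glyma11g27480. Whether neighbours share reads was not tested.

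Which genes were members depended most on how replicates were compared. With each cold library required to lie 0.58 above every 0 h library, 8 genes were left. A threshold of 1 in place of 0.58 left 16. Both conditions are stricter than the rule, so the genes left are members by construction. Scaling to equal library totals gave 75 genes, of which 62 were members, and quantile normalization gave 71, of which 65 were members. Without replicate 3, 173 genes met the rule and 58 of the members were among them, which is 82.9% of the members and 33.5% of those genes. The other 12 failed the level condition once the replicate 3 libraries were left out. Without replicate 1 or 2, 144 and 164 genes met it, with 66 members among each.

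**Figure D5:**
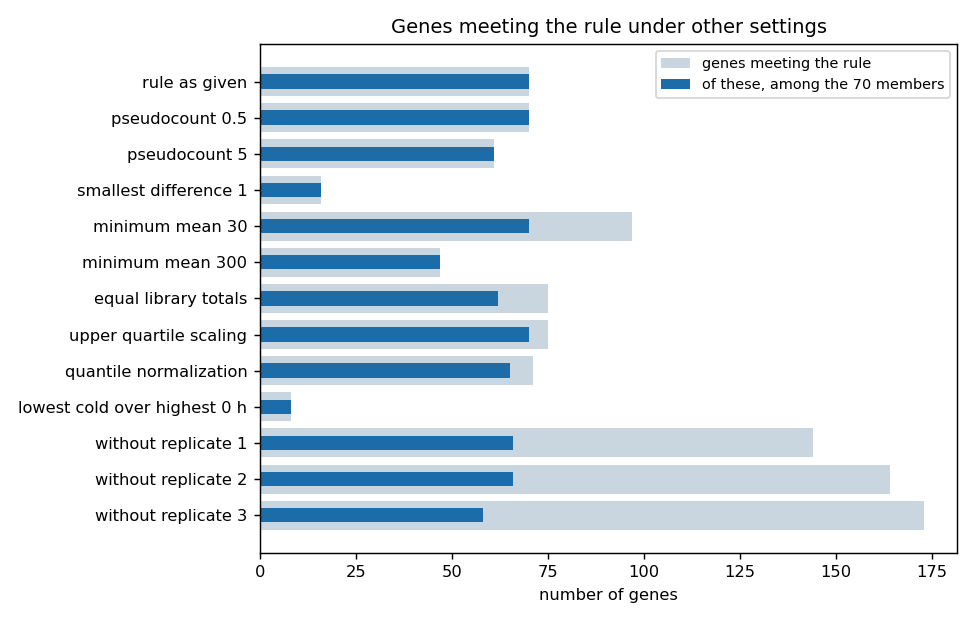
Number of genes meeting the rule under other settings (wide bars) and how many of them are among the 70 members (narrow bars). Requiring the lowest cold library to lie at least 0.58 above the highest 0 h library leaves 8 genes, and leaving out a replicate number gives 144 to 173.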

How the data were processed

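RNA of 9 soybean leaf libraries was sequenced after TruSeq RNA preparation, per the labels' protocols. The deposited table gives a score per gene and library, a read count that the authors normalized and rounded to whole numbers, as the label of the table and the values show. Tools listed, with no role, per the submitters' processing notes are DESeq 1.12 and cutadapt 1.2.1. The aligner, genome build and handling of shared reads are not given in the sources used here. Median-of-ratios factors recomputed from the scores were 1.01 in every library. The labels give at least 6 plants per replicate and do not say that replicates were grown apart. P-values without the block measure the spread between these libraries, which may be technical. Those with the block measure only the spread left once the differences between replicate numbers are removed. The median SE of the members was 0.76 without the block and 0.22 with it.

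Scores were analysed as log2(score + 1), which understates the fold of low genes. The spacing of low scores gave the worth of 1 read and hence the depth. Genes with a mean of at least 10 (38985, with all 70 members) were tested with limma 3.58.1 in R 4.3.3, two-sided, in a single model of the 9 libraries with moderation set to trend and robust. P-values were adjusted by Benjamini-Hochberg over all genes tested, with a threshold of 0.05. The model was fitted first without a block and then with a block for replicate number. Same-numbered libraries deviated together (9 of 9 pairs between 0.689 and 0.950, other pairs between -0.85 and 0.59), so the pairing comes from the data. Departures from a mean of 3 libraries sum to 0, which draws differently numbered pairs downward. Every pair below 0 involved replicate 3, while pairs of replicates 1 and 2 gave 0.44 to 0.59. The contrast thus rests in large part on replicate 3. Figures were drawn with matplotlib 3.10.9 and tables made with pandas 2.3.3 and numpy 2.4.6 under Python 3.11.15.

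The members, lists and tests were chosen with earlier results of these data known. Genes named by rule are 2 by the smallest of the 6 differences, 2 by level in the cold, 2 and 2 by the difference between 24 h and 1 h, and 1 on each side of the threshold. Members named for their level in replicate 3, Glyma16g29315, named for its level at 24 h, and Glyma17g12804, named for a call, were picked after the values were seen. No identifier matched the 59048 genes of the RefSeq table (assembly Glycine_max v4.0), so gene lists, marker genes, promoters and proteins were not used here.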

Additional observations from a re-analysis of the deposited data

How the results depend on the processing

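Of the alternatives for the number of members, a threshold of 1 gave 16 genes and the comparison with no replicate block 8. The other pseudocounts, level minimums and scalings gave 47 to 97. Leaving out 1 library gave 82 to 216 and leaving out a replicate number 144 to 173, since fewer differences are then required. Without the block, 0 members were called at 1 h and 0 at 24 h under each of the pseudocounts, filters, scalings and moderations. Adding the replicate block gave 57 at 1 h and 52 at 24 h. With it, the pseudocounts of 0.5 and 5 gave 56 and 57 at 1 h and 53 and 52 at 24 h, no filter 52 and 49, a mean of at least 100 48 and 49 (of 62 members tested), equal totals 59 and 49, quantile normalization 52 and 54, and plain moderation 0 and 1 (Glyma14g37440). Leaving out a library or a replicate number gave 0 to 54 members at 1 h and 0 to 53 at 24 h over both fits. With the block, the fewest at 1 h were 4 without replicate 1, and at 24 h 16 without replicate 1. Between 24 h and 1 h the count of members stayed at 0, except 0 to 1 with libraries left out. Over all genes it reached 1 with the block without replicate 2 of 1 h, 2 without replicate 3 of 1 h, 1 without replicate 3 of 24 h and 3 without replicate 3. The median difference between the cold times, 0.00, was -0.0968 with equal totals and -0.0860 to 0.109 with libraries left out. It moved by less than the SD of 0.0891 between the 3 replicate medians in 35 of 39 alternatives, but many of these could not move it. The block with all libraries kept, plain moderation, no filter and leaving out a 0 h library give the same median by construction. The tally is therefore no measure of stability. The cause of these movements was not tested. Count tests, promoter motifs and paralogs were not run, for want of whole reads and matched identifiers. Depth limits the 12 members with fewer than 5 reads in some 0 h library.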
